A study of Homo sapiens with 4 samples.

Results

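LS174T is an established, mucin-making human colorectal cancer cell line, and the 2 arrays compared here carried RNA of LS174T cells titled siCDX1 and of LS174T cells titled siVec. The name siCDX1 was read as cells in which the homeobox gene CDX1 had been lowered and siVec as their vector control. The labels gave no construct, treatment time or clone, and did not say whether a modified line was 1 clone or a mixed culture. The study was designed as 2 pairs of colorectal cancer cell lines, 4 arrays in all, and the remaining pair, HCT116-CDX1 and HCT116-Vec, comes from HCT116, a further colorectal cancer line, with CDX1 or a vector named in the titles. Its title names the question, whether CDX1 regulates cytokeratin 20. Of 19775 genes read from probe sets annotated to 1 gene, 16896 were measured, which means that the brighter LS174T array stood at 6 or more on the log2 scale, and 2879 were not. A gene is said to have risen or fallen where its log2 level on the siCDX1 array differed by at least 1, which is 2-fold, from that on the siVec array. Each group had 1 array, so no difference below has a replicate, an error or a test, and 2-fold is a rule of size. In RNA from a whole culture, fewer cells of a type and less RNA per cell cannot be told apart.

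CDX1 and its relative CDX2 are homeobox transcription factors of the intestinal epithelium, where CDX proteins bind AT-rich sites near genes of absorptive and mucus-secreting cells. In the gut CDX1 is highest toward the crypt, while cytokeratin 20 and other products of differentiated cells lie toward the surface. Colorectal cancers often keep part of this programme, and LS174T in particular keeps mucin genes.

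Among measured genes falls outnumbered rises. Of the 16896 measured genes, 211 fell (1.25%) and 101 rose (0.598%), 312 together (1.85%), while 51.2% of all measured genes lay below 0 and the median difference was -0.01. Array signals of different genes are not on 1 scale, so their levels only describe where on the array range the changes lay. For genes that fell the median level was 9.38 in siVec cells and 7.55 in siCDX1 cells. For genes that rose the median was 6.77 in siVec cells and 8.63 in siCDX1 cells, beside 8.32 and 8.29 for all measured genes. Falls of at least 8-fold were seen for 14 genes and rises of that size for 13, and at 4-fold the counts were 48 and 28. At 1.5-fold 547 genes were lower (3.24%) and 291 higher (1.72%).

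**Figure D1:**
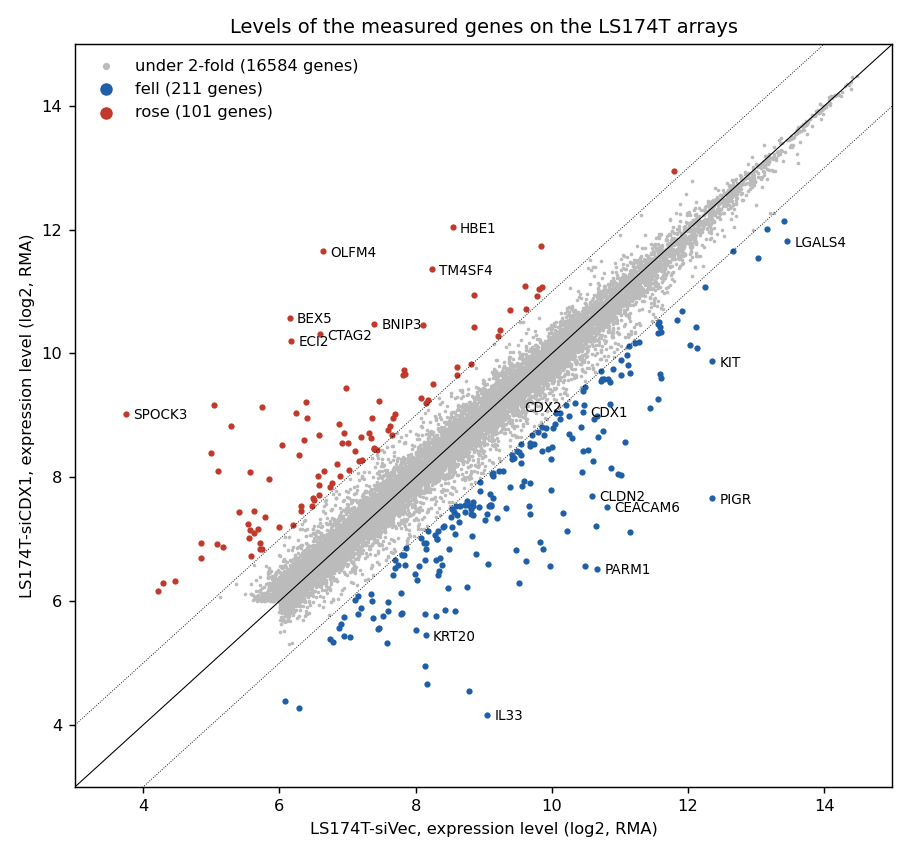
Each point is 1 of the 16896 measured genes, with its level on the LS174T-siVec array on the x axis and on the LS174T-siCDX1 array on the y axis, both in log2 units after RMA normalisation. The solid line marks equal levels and the dotted lines 2-fold. The 211 fallers include CDX1, PIGR, KIT and LGALS4 and lie below the lower dotted line, and the 101 risers, OLFM4 and BEX5 among them, lie above the upper one.

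The promoters of KRT20, the gene of the study's question, and of strongly changed genes are printed here because CDX proteins are known for binding AT-rich letters close to gene starts. Each run reads 5′ to 3′ on the gene's strand, from 250 bases before to 50 bases after the start, and is taken from RefSeq on GRCh38.p14. Capitals mark TTTAT on either strand, which reads as TTTAT or ATAAA here.
KRT20, chr17:40885193-40885492, minus strand: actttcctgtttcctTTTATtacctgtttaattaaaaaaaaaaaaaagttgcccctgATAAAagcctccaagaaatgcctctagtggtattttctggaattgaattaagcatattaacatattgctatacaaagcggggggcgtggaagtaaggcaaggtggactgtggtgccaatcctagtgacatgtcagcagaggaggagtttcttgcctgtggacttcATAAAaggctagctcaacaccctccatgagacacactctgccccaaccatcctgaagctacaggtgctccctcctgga
PIGR, chr1:206946417-206946716, minus strand: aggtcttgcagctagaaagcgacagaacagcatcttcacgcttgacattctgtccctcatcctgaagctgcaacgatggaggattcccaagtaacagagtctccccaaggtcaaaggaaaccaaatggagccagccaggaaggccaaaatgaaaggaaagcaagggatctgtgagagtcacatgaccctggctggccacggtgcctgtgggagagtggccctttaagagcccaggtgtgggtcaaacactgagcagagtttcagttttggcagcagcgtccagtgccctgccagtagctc
CLDN2, chrX:106899914-106900213, plus strand: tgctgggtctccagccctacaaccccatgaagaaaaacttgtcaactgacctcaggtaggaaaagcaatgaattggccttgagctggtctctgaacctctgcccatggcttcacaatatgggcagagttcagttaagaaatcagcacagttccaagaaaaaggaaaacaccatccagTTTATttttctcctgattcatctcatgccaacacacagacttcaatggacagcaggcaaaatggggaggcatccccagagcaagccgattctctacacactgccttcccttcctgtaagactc
CLDN2, chrX:106918110-106918409, plus strand: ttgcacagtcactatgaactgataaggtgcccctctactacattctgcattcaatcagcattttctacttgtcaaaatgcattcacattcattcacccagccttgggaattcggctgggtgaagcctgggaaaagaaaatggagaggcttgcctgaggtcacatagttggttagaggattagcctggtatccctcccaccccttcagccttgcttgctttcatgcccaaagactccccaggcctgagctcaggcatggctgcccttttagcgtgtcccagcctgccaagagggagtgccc
IL33, chr9:6214899-6215198, plus strand: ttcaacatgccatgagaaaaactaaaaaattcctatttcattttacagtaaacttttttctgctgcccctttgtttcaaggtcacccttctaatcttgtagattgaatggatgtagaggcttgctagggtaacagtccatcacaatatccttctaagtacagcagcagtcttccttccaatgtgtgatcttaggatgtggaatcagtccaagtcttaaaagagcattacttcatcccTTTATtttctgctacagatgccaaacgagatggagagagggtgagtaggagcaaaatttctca
IL33, chr9:6215557-6215856, plus strand: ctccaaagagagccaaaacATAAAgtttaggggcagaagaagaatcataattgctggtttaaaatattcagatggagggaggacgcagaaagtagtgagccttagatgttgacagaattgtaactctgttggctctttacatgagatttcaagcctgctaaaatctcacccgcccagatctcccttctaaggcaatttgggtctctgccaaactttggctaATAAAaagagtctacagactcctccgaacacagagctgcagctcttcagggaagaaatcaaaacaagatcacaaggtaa
CEACAM6, chr19:41755280-41755579, plus strand: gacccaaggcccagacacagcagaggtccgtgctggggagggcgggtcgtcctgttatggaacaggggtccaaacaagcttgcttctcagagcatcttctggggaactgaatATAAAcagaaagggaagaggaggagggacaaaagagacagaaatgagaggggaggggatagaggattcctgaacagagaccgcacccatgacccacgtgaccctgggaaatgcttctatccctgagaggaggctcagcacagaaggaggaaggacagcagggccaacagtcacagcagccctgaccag
OLFM4, chr13:53028563-53028862, plus strand: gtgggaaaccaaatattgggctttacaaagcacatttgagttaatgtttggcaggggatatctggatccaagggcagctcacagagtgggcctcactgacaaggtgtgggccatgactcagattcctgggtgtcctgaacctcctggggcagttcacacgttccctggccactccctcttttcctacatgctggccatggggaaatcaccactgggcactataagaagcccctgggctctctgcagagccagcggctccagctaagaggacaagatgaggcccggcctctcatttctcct

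The KRT20 window held 3 matches to TTTAT, which began 235, 193 and 28 bases before the start, and the PIGR and OLFM4 windows held 0. The upstream window of CLDN2 held 1 match, 73 bases before its start, and its other window 0. For IL33 the upstream window held 1 match, 13 bases before its start, and the other 2, at 231 and 29 bases before. The match in CEACAM6, 138 bases before the start, lay inside the letters TATAAA, which overlap this motif on 1 strand. None of these windows held the longer motif TTTATNG, read as CNATAAA on the opposite strand. Among all RefSeq promoter windows of this length 9.73% held TTTATNG, and among those of measured genes 7.2% did. The share was 11.8% for genes that fell (27 of 229 windows, 162 genes) and 4.63% for genes that rose (5 of 108 windows, 74 genes). TTTAT was in 34.9% of all windows, in 25.9% of those of measured genes, in 31% of those of genes that fell and in 30.6% of those of genes that rose. The median GC content of the windows was 61% for genes that fell, 63.7% for genes that rose and 63.3% for measured genes (the part of base composition in the motif shares was not tested). Of the TTTAT matches, 29.8% among genes that fell, 28.8% among genes that rose and 23.9% among measured genes lay inside TATAAA. A match describes letters in a window and is no binding site.

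Over all probe sets the levels of the 2 arrays correlated with r = 0.989 across probe sets, which are not independent, and the array medians were 7.04 for siVec and 7.06 for siCDX1. The 18 hybridisation controls differed by at most 0.170. The GAPDH control's 3′ minus 5′ level, a sign of RNA integrity, was -0.07 in siVec cells and -0.06 in siCDX1 cells. The central 95% of measured genes had a difference between -0.68 and 0.49. It reached from -0.54 to 0.54 at mean levels of 6 to 8 and from -0.79 to 0.48 at 8 to 10. At 10 or more it reached from -0.73 to 0.36. All 31 ribosomal protein genes measured lay between -0.07 and 0.07, and 16 common reference genes between -0.26 and 0.14. The label was checked against cell type markers: all 15 colorectal epithelial markers were measured, with a median level of 11.84 in siVec cells and 10.55 in siCDX1 cells. Of these 15, 14 lay below 0 and 5 fell, among them GPA33 (11.84 to 10.55), an intestinal surface antigen, and PHGR1 (8.76 to 7.55), while EPCAM (13.24 and 12.96) and CDH1 (8.80 and 8.76) differed by less than 2-fold. Read from the probe set brightest in LS174T, 7 of the 15 fell and their median difference was -0.90 in place of -0.54. The part of this in the other falls was not tested. In the marker lists of fibroblasts, endothelium, leukocytes, neurons and glia, and hepatocytes 0 genes changed. Their median levels over the genes read were 6.63 to 7.16 on the siVec array, with PTPRC at 6.51, PECAM1 at 7.60 and ALB at 5.67 there, so a level of 6 to 7 is no sure sign of expression. Higher levels in these lists included LYZ (11.25 and 11.74), also made by gut epithelium, TUBB3 (11.62 and 11.33), MBP (10.32 and 10.27) and COL1A1 (9.01 and 8.86).

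CDX1 itself was lower in the cells named for it. Its probe set, the only one, stood at 10.46 in siVec cells and 9.06 in siCDX1 cells, a difference of -1.40 that left 37.9% of the siVec level. CDX1 was thus lowered by more than 2-fold and remained detectable. CDX2 had 9.49 and 9.14 (-0.35) on its brighter probe set and 7.62 and 6.89 (-0.74) on the other, under 2-fold on both. KRT20, an intermediate filament protein of differentiated gut epithelium, stood at 8.15 in siVec cells and 5.45 in siCDX1 cells, a difference of -2.70. Because the lower level is under 6, this is a fall of at least 4.43-fold, which is the fold with levels under 6 set to 6, here and in every "at least" that follows.

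Of 28 CDX and intestinal factors measured, CDX1 was the 1 that fell and 0 rose, with a median of -0.00 and 14 of 28 below 0. The vitamin D receptor VDR had 10.49 and 9.56 (-0.93), FOXA3 7.45 and 6.80 (-0.64), and ATOH1, the factor that starts the secretory lineage, 6.93 and 7.61 (0.68). GATA6 (10.62 and 10.82), KLF5 (10.92 and 11.07) and SOX9 (12.30 and 12.43) differed by less than 0.2. The counts of this list and of each list that follows stand beside the shares over all measured genes, of which 1.25% fell, 0.598% rose and 51.2% lay below 0. Every list was drawn up with earlier results of these arrays known, so no list's counts or direction are independent evidence.

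Of 28 measured genes that the literature ties to CDX factors, 11 fell (39.3%, against 1.25% of all measured genes), 0 rose and 23 lay below 0, with a median of -0.63 (-0.34 with the mean over each gene's probe sets). The list includes CDX1 and KRT20, and it was drawn up with earlier results of these arrays known, so its direction is no independent evidence. Among its other members, MUC2, the main secreted mucin of the colon, went from 9.09 to 7.73 (-1.37). GUCY2C, the guanylin receptor of the gut surface, went from 6.74 to 5.40, at least 1.67-fold. ABCB1, a drug efflux pump, went from 11.59 to 9.67 (-1.92), with a second probe set at -1.44. The actin bundler VIL1 had 10.91 and 9.94 (-0.97) on the probe set used, and 11.07 and 10.07, just past 2-fold, on another that was brighter in LS174T.

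With levels under 6 set to 6, PIGR had the largest fall. PIGR, the receptor that carries antibodies across mucosal epithelium, went from 12.35 to 7.66, a 25.8-fold fall, and its other probe set from 12.67 to 6.89 (-5.78). Both probe sets of PIGR thus fell by more than 4 log2 units. PARM1, a mucin-like membrane protein, went from 10.66 to 6.52 (17.7-fold). CEACAM6, an adhesion molecule common in colorectal cancer, went from 10.82 to 7.52 (9.79-fold), with its other probe set at -4.96. MALL, a raft protein of epithelial membranes, went from 10.64 to 7.22 (10.7-fold). COL18A1, a basement membrane collagen, went from 9.97 to 6.56 (10.6-fold). IL33, an alarm cytokine of barrier epithelium, went from 9.05 to 4.17, at least 8.31-fold.

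Several receptors and signalling proteins were also among the 30 largest falls. KIT, a receptor tyrosine kinase, went from 12.35 to 9.88 (5.56-fold). KISS1R, the kisspeptin receptor, went from 10.86 to 8.16 (6.53-fold), and RAMP1, which partners the calcitonin receptor family, from 10.45 to 8.08 (5.17-fold). HKDC1, a hexokinase-like enzyme, went from 9.47 to 6.83 (6.21-fold). RUBCNL, an autophagy regulator, went from 11.14 to 7.12 (16.3-fold) and its other probe set by -5.98. CADPS, which primes vesicles for secretion, went from 10.48 to 6.57 (-3.91), and its 6 probe sets ranged from -4.32 to -1.15. SERPINE2, a protease inhibitor, went from 9.87 to 6.84 (8.19-fold). NEBL, an actin-binding protein, went from 10.22 to 7.14 (8.48-fold), and its other measured probe sets ranged from -2.29 to -0.11. The ion pump regulators FXYD5 (11.01 to 8.04) and FXYD3 (10.97 to 8.05) fell too (-2.96 and -2.92). SPON1, a matrix protein, went from 10.61 to 8.26 on the probe set used, and its other probe sets ranged from -5.70 to -1.80. The remaining ranked falls included COXFA4L3 (9.52 to 6.29), SLC43A3, a solute carrier (9.82 to 6.96), CRIP1, a LIM domain protein (10.17 to 7.42), SNX7, a sorting nexin (8.58 to 5.84), AZGP1, a secreted zinc-binding glycoprotein (9.06 to 6.60), CHIC1 (8.43 to 5.85) and C12orf75 (11.44 to 9.12). Their differences ran from -3.24 for COXFA4L3 to -2.32 for C12orf75.

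**Figure D2:**
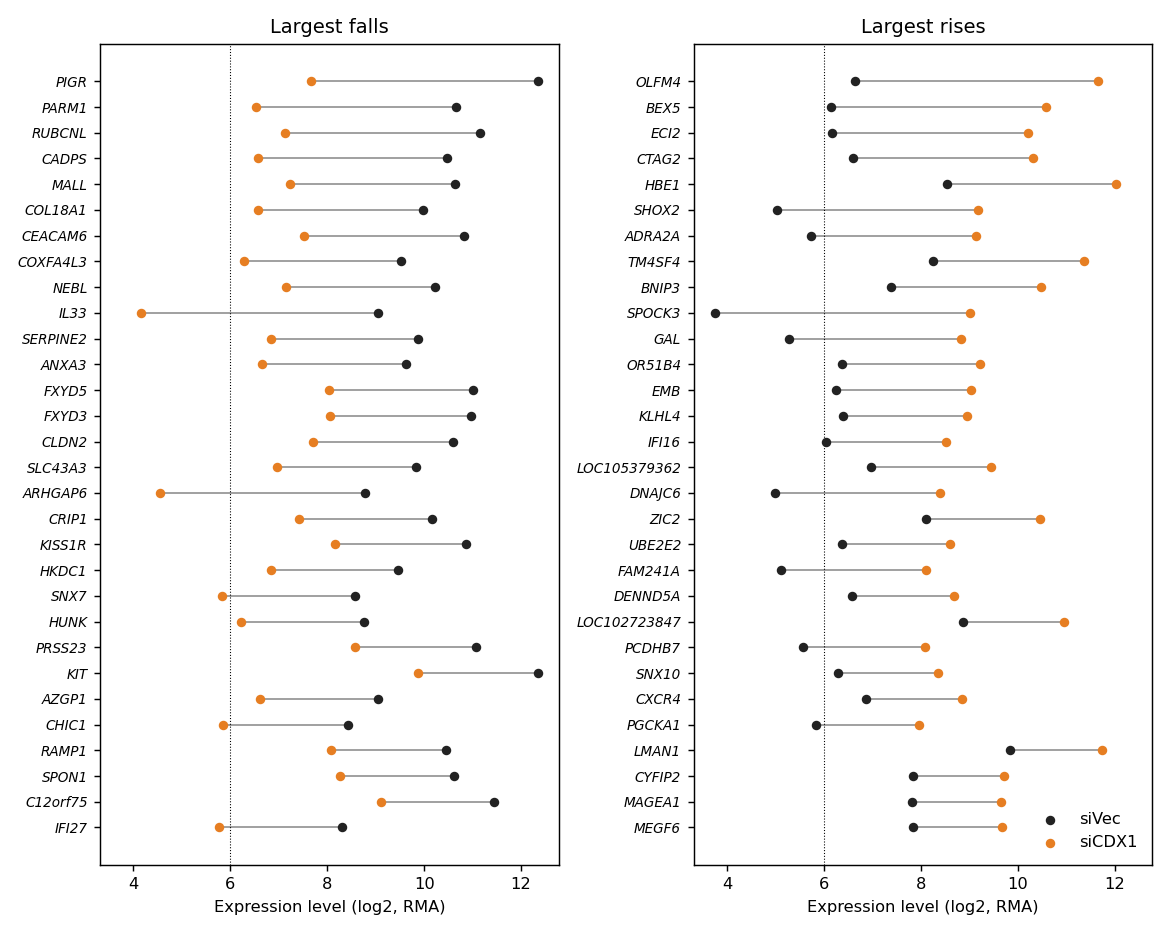
The 30 largest falls (left) and the 30 largest rises (right) among measured genes, ranked with levels under 6 set to 6. Black points are the LS174T-siVec array and orange points the LS174T-siCDX1 array, in log2 RMA units, and the dotted line is the level of 6, which the dimmer array misses for 5 of these falls and 8 of these rises.

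With levels under 6 set to 6, OLFM4 led the rises. This secreted glycoprotein of crypt base stem cells stood at 6.65 in siVec cells and 11.65 in siCDX1 cells, a 32.2-fold rise on its 1 probe set. BEX5, a small adaptor-like protein, went from 6.15 to 10.58 (21.5-fold), and ECI2, an enzyme of unsaturated fatty acid oxidation, from 6.17 to 10.20 (16.3-fold). These are the largest rises with both levels above 6. BNIP3, a mitochondrial protein of mitophagy, went from 7.39 to 10.48 (8.47-fold), with its other probe set at 2.49. TM4SF4, a tetraspanin-like membrane protein, went from 8.24 to 11.36 (8.68-fold), and LMAN1, a cargo receptor of the secretory pathway, from 9.84 to 11.74 (3.73-fold). EMB, an adhesion protein, went from 6.25 to 9.03 (6.89-fold). CXCR4, the receptor of the chemokine CXCL12, went from 6.87 to 8.86 (3.97-fold), and its other probe sets rose by 2.20 and 3.95. IFI16, a DNA sensor, went from 6.03 to 8.52 (5.59-fold), and all 3 of its probe sets rose. The transcription factors SHOX2 (5.04 to 9.17, at least 9.01-fold) and ZIC2 (8.11 to 10.46, 5.08-fold) also rose, with the other SHOX2 probe sets at 2.43 and 0.45. The remaining ranked rises included KLHL4 (6.40 to 8.95), the ubiquitin-conjugating enzyme UBE2E2 (6.36 to 8.61), DENND5A (6.58 to 8.68), the sorting nexin SNX10 (6.28 to 8.36), the actin regulator CYFIP2 (7.83 to 9.73), MEGF6 (7.85 to 9.67), the protocadherin PCDHB7 (5.57 to 8.08, at least 4.24-fold) and PGCKA1 (5.85 to 7.97, at least 3.92-fold). The uncharacterised loci LOC105379362 (6.98 to 9.44) and LOC102723847 (8.86 to 10.95) rose by 2.46 and 2.09.

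A gene's probe sets share the RNA and are no replicates, but they show how far a value rests on 1 probe set. Of the 312 changed genes, 148 had 1 probe set and 164 several. Among the 164, all probe sets had the same sign for 135 genes, another probe set passed 2-fold for 91, and all did for 57. Reading each gene from the probe set brightest in LS174T, and not over all 4 arrays, kept 207 of the 211 falls and 94 of the 101 rises. That reading added 13 falls and 1 rise. The largest was CEACAM5, the carcinoembryonic antigen, which went from 11.07 to 6.92 (-4.15) on that probe set and had 8.47 and 8.55 on the one used. The probe sets of PRSS23, a serine protease, disagreed: 3 lay at -2.50, -2.29 and -2.04 and 1 at 0.49. HUNK, a kinase, had -2.52 on the probe set used and 0.26 on the other. HBE1 (3.49 and 0.06), GAL (3.55 and -0.00) and FXYD3 (-2.92 and -0.23) each rested on 1 of 2 probe sets. So did DNAJC6 (3.41 and 0.19) and SERPINE2 (-3.03 and 0.13), whose other probe sets were under 6 on both arrays. Signs also differed within PLCE1 (-1.65, with others up to 0.38), LONRF1 (1.56, with others down to -0.36), ASB4 (-1.75, with others up to 0.29) and CAST (-1.0, with others up to 0.25). Probe sets ending in _x_at or _s_at can read several transcripts. Without them fewer genes, 13891, were measured, of which 165 fell and 76 rose. Falls then numbered 3 of 7 keratins, 4 of 27 cytokines and chemokines and 3 of 24 mucin and goblet genes. They numbered 1 of 21 lipid absorption genes, 3 of 32 drug and xenobiotic genes and 4 of 23 RAS-MAPK genes. Among immediate early and YAP response genes 2 of 21 fell, and among interferon-stimulated genes 1 of 26. In the cyclin, CDK inhibitor and p53 target list 0 of 24 fell, and in the NF-kappaB list 0 of 13. Rises then numbered 2 of 9 cancer-testis antigens, 1 of 32 drug and xenobiotic genes and 1 of 19 crypt base stem cell genes. In the HOX list 0 of 19 rose, and in the peroxisome and beta-oxidation list 0 of 26. OLFM4 and ECI2 each have 1 probe set, which is of this kind, so both dropped out. With the mean over probe sets 3 of 23 galectins and tetraspanin-like proteins fell.

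**Figure D3:**
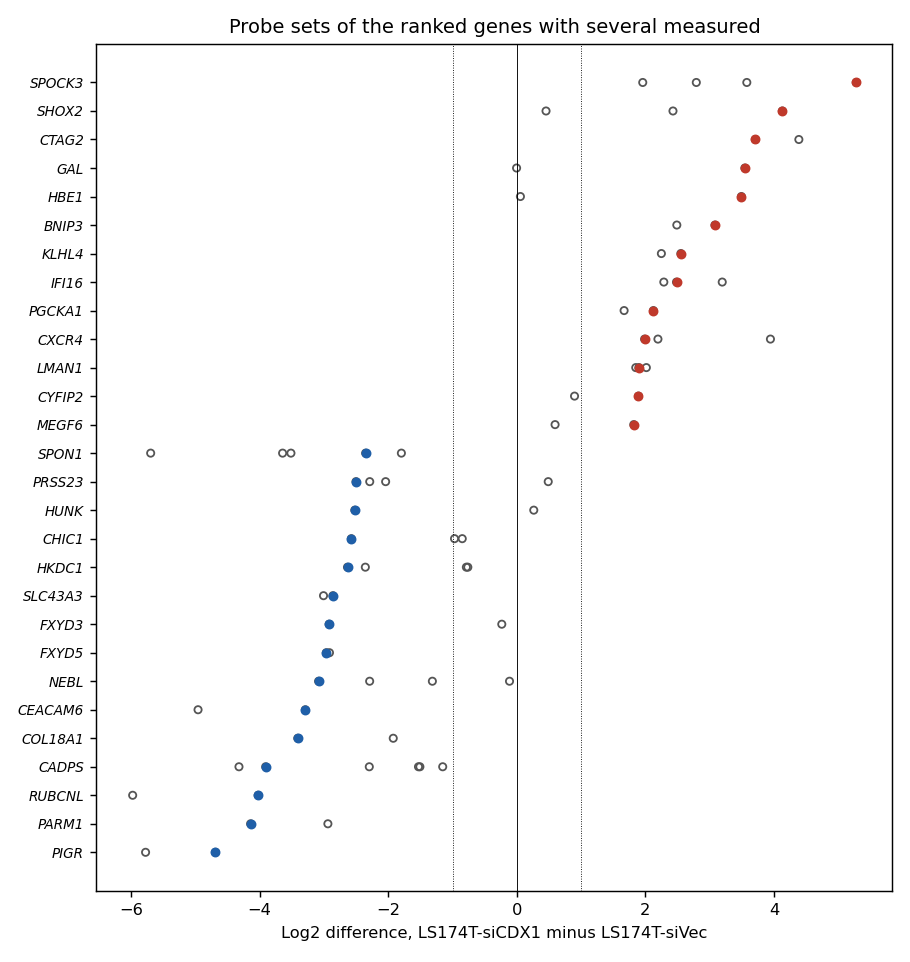
Log2 difference, siCDX1 minus siVec, of every measured probe set of the 28 ranked genes with several. Filled points are the probe set used for the gene (blue fell, red rose), open circles its others, and dotted lines mark 2-fold; PRSS23 and HUNK have probe sets on both sides of 0.

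Keratin and junction genes lay mostly below 0. Of 13 keratins measured 5 fell (38.5%), 0 rose and 10 lay below 0, with a median of -0.47. Beside KRT20, the simple epithelial keratins KRT8 (13.02 to 11.54) and KRT19 (12.12 to 10.43) fell (-1.49 and -1.69), while a second probe set of KRT19 had 0.19. KRT80 (7.85 to 6.58) and KRT13 (6.94 to 5.43, at least 1.92-fold) were the others. KRT18, the partner of KRT8, had 13.61 and 13.07, under 2-fold. Of 35 genes of tight junctions, adherens junctions and desmosomes 4 fell (11.4%), 0 rose and 33 lay below 0, with a median of -0.25. CLDN2, a pore-forming claudin, went from 10.59 to 7.70 (7.41-fold), and the desmosomal cadherin DSC2 from 9.99 to 7.80 (4.58-fold). P-cadherin CDH3 (9.08 to 7.53) and CLDN1 (8.82 to 7.41) also fell.

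Of 29 brush border genes 3 fell (10.3%), 0 rose and 22 lay below 0, with a median of -0.16. Beside MALL these were DPP4, a surface peptidase (9.67 to 7.91, 3.39-fold), whose other probe sets had -2.35 and -3.17, and EPS8L3, an actin regulator (10.30 to 8.64, 3.15-fold). Of 30 genes of lipid absorption and lipoprotein assembly 2 fell, 0 rose and 22 lay below 0, with a median of -0.13. MTTP, which loads lipid onto apolipoprotein B, went from 8.14 to 4.96, at least 4.40-fold, and the lipid droplet protein PLIN3 from 9.05 to 7.41 (3.13-fold). FABP5, a fatty acid carrier, had 13.26 and 12.27 (-0.99).

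Of 32 mucin, trefoil and goblet cell genes 7 fell (21.9%), 1 rose and 23 lay below 0, with a median of -0.31. Under quantile normalisation, and also under loess, 5 of the 32 fell. TFF1, a trefoil peptide, went from 8.93 to 7.51 (-1.42), and the mucins MUC6 (11.22 to 10.17) and MUC13 (10.48 to 9.45) fell by little more than 2-fold (-1.05 and -1.03). The fucosyltransferases FUT2 (-1.13) and FUT3 (-1.18), which build blood group sugars on mucins, fell as well. SPINK4, a goblet cell peptide, rose from 7.10 to 8.42 (1.31). Of 36 mucosal defence genes PIGR and LCN2, an iron-trapping protein (9.13 to 8.06), fell and 0 rose, with a median of -0.04. Of 17 CEACAM and pregnancy-specific glycoprotein genes CEACAM6 was the 1 that fell, and the median was -0.03. With the probe set brightest in LS174T, 3 fell: CEACAM6, CEACAM5 and CEACAM1, whose 5 probe sets ranged from -1.49 to -0.18.

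Among 33 epithelial cytokines and chemokines 8 fell (24.2%) and 0 rose, although the list's median was -0.02. IL32 went from 10.68 to 8.64 (4.11-fold), IL18, a cytokine matured by inflammasomes, from 8.82 to 7.05 (3.42-fold), and IL15, a survival cytokine of lymphocytes, ended at 8.49 (2.85-fold lower). The neutrophil chemokines CXCL1 (9.11 to 7.53) and CXCL8 (8.16 to 6.84) fell as well (-1.57 and -1.32). CCL20 (7.20 to 5.89, at least 2.30-fold) and the receptor antagonist IL1RN (7.80 to 6.74) completed the 8 with IL33. Of 19 NF-kappaB targets and regulators IER3 was the 1 that fell, and the median was 0.02.

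The median of 36 interferon-stimulated genes was -0.10, with 3 that fell and 1 that rose. IFI16, whose rise is given above, was not in this list. IFI27 (8.30 to 5.76, at least 4.93-fold), TRIM22 (7.80 to 5.80, at least 3.48-fold) and IFITM1 (10.34 to 9.20) fell, and EIF2AK2, the RNA-sensing kinase PKR, rose from 9.21 to 10.28 (1.07). Of 26 genes of MHC and antigen processing 0 changed, 20 lay below 0 and the median was -0.16. HLA-DMA, a peptide loading chaperone, had 9.74 and 8.76 (-0.99), and B2M 13.51 and 13.37.

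Genes that follow RAS-MAPK signalling lay mostly below 0. Of 29 measured 6 fell (20.7%), 0 rose and 22 lay below 0, with a median of -0.42. With quantile normalisation 4 of the 29 fell, and with loess 5. DUSP6, the phosphatase that restrains ERK, went from 11.60 to 9.61 (3.98-fold), and all 3 of its probe sets lay between -1.99 and -1.88. DUSP5 (8.60 to 7.39), IER3 (10.46 to 9.40), the potassium channel KCNN4 (8.54 to 7.49) and SPRED1 (10.20 to 9.18) fell, with values of -1.21 to -1.03, beside CXCL8. Of 31 immediate early and YAP response genes 4 fell, 0 rose and 22 lay below 0, with a median of -0.23. FOS went the other way, with 9.58 and 10.51 (0.93), just short of 2-fold. Quantile normalisation gave 3 falls and 1 rise in this list. CCN2 (7.58 to 5.33) fell at least 2.99-fold, F3, the tissue factor, went from 8.51 to 7.37 (-1.15) and EGR1 from 10.12 to 9.03 (-1.08). Of 30 TGF-beta and BMP response genes 3 fell, CCN2, the ligand BMP7 (10.66 to 8.98, 3.21-fold) and TGFBI (8.81 to 7.49), while BMP2 had 6.08 and 7.03 (0.96) and the list's median was -0.06. The 28 Notch genes (median 0.05) had 1 that rose, the repressor HEY2 (7.32 to 8.71, 1.39), while the ligand JAG1 had 11.20 and 10.22 (-0.99).

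Of 24 crypt base stem cell genes 2 rose, OLFM4 and ALDH1A1, a retinoic acid-forming enzyme (11.79 to 12.95, 1.15), and 0 fell. The median was 0.05 and 12 lay above 0. CD24 of this list had -0.95 on the probe set used, just short of 2-fold. The mean over its 6 probe sets was -1.05, past 2-fold, so the absence of falls depends on the probe set. Of 30 Wnt targets and feedback genes the secreted inhibitor DKK1 rose from 6.84 to 8.21 (1.37) and CEMIP, which breaks down hyaluronan, fell from 12.25 to 11.07 (-1.17), with a median of -0.10.

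Most proliferation genes lay slightly above 0. All 44 measured were under 2-fold, 40 lay above 0 (48.8% of all measured genes did) and the median was 0.21. The largest were the mitotic proteins CENPF (10.41 and 10.97, 0.56) and KIF11 (9.70 and 10.10, 0.40). Of 33 cyclin, CDK inhibitor and p53 target genes CDKN1A, the inhibitor p21, was the 1 that fell, from 11.91 to 10.69 (-1.22). Of 24 HOX genes 19 lay above 0, with a median of 0.18. HOXB7 rose from 9.81 to 11.04 (1.23), and HOXB6 (6.33 and 7.17, 0.84) and HOXB3 (6.77 and 7.49, 0.72) of the same cluster did not pass 2-fold.

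**Figure D4:**
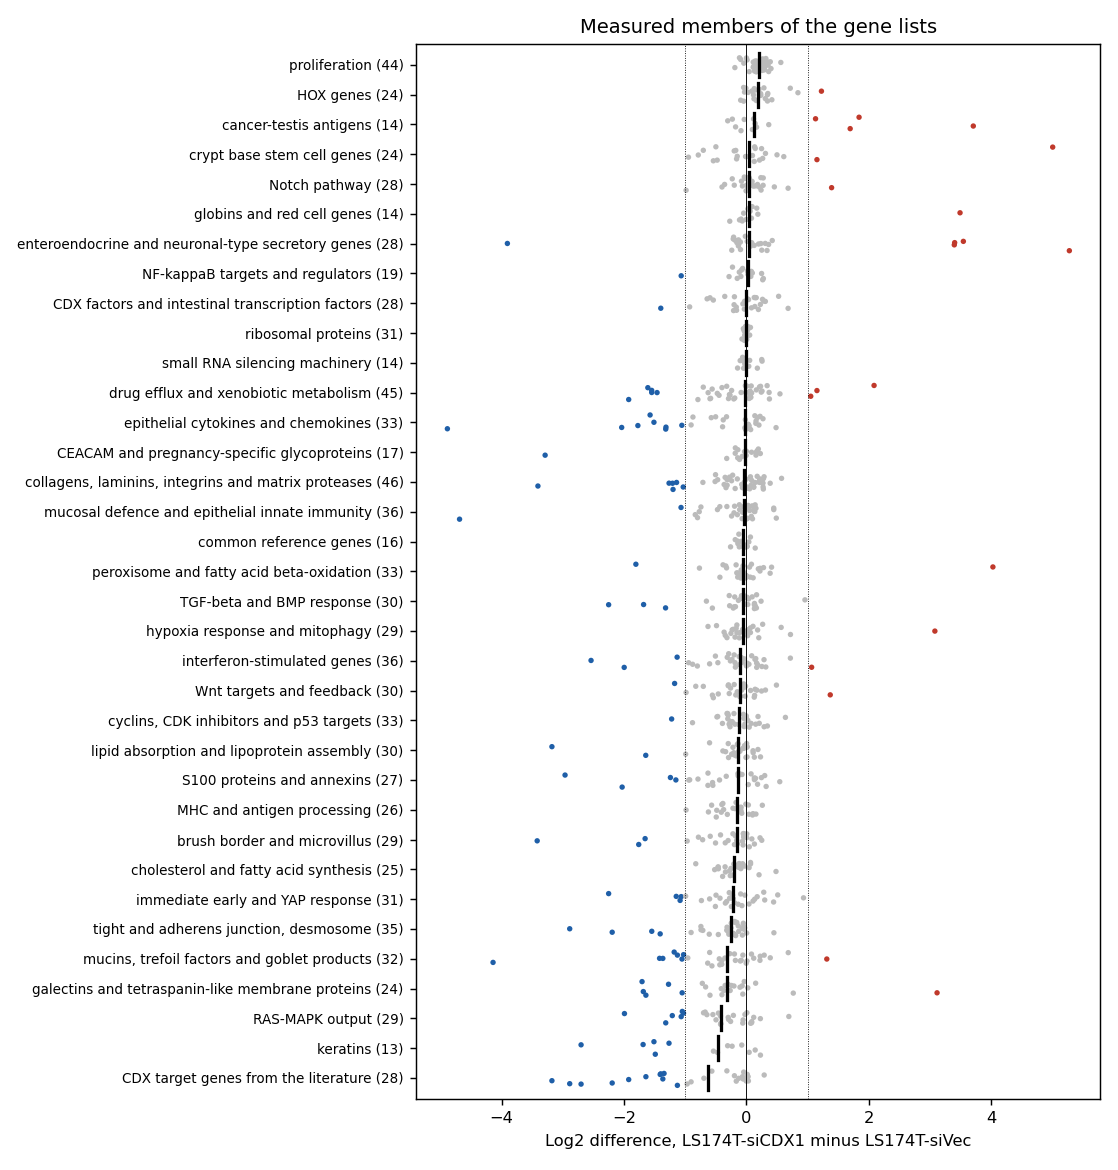
Each point is 1 measured gene of the list named at the left (number measured in brackets), placed by its log2 difference siCDX1 minus siVec, with blue for genes that fell, red for genes that rose and grey for those under 2-fold. Black bars are list medians, from 0.21 for proliferation to -0.63 for CDX target genes, and dotted lines mark 2-fold.

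Genes better known from neurons, the germ line or red cells were among the rises. Of 28 enteroendocrine and neuronal-type secretory genes measured 4 rose and 1, CADPS, fell, with a median of 0.04. All 4 are among the 30 largest rises, and the list was drawn up with earlier results known, so its count is no independent evidence. SPOCK3, a matrix proteoglycan of brain, went from 3.74 to 9.02, at least 8.14-fold, and its 4 probe sets ranged from 1.96 to 5.28. GAL, the neuropeptide galanin, went from 5.28 to 8.83 (at least 7.12-fold), ADRA2A, an adrenergic receptor, from 5.74 to 9.14 (at least 8.82-fold), and DNAJC6, which uncoats clathrin vesicles in neurons, from 4.99 to 8.40 (at least 5.26-fold). The enteroendocrine markers CHGA (6.31 and 6.22) and NEUROG3 (5.84 and 6.08) differed by less than 0.3. Of 14 cancer-testis antigens measured, genes silent in most adult tissues, 4 rose (28.6%, against 0.598% of all measured genes) and 0 fell, with a median of 0.13. CTAG2 went from 6.60 to 10.31 (13.1-fold), with its other probe set at 4.39, and MAGEA1 from 7.81 to 9.66 (3.59-fold). GAGE1 (5.17 to 6.87, at least 1.83-fold) and MAGEC2 (6.51 to 7.64, 2.19-fold) rose too, though the other MAGEC2 probe set had -0.14. With the mean over probe sets 3 of 12 cancer-testis antigens rose. MAGEA6 (12.45 and 12.27) and MAGEA12 (11.58 and 11.55) differed by less than 0.2. Members of these families are near copies of each other, so a probe set may read a relative. Of 14 globin and red cell genes HBE1, the embryonic epsilon globin, rose from 8.54 to 12.04 (11.3-fold) and 0 fell (median 0.04). OR51B4, the olfactory receptor gene next to HBE1 among measured genes on chromosome 11, went from 6.38 to 9.21 (7.11-fold).

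Of 45 drug efflux and xenobiotic genes (median -0.02) 5 fell and 3 rose. Beside ABCB1, the epoxygenase CYP2J2 (10.26 to 8.71), the sulfotransferase SULT1C2 (9.10 to 7.55), CYP4F2 (9.13 to 7.67) and CYP4F3 (7.03 to 5.42, at least 2.04-fold) fell, the last 2 being close relatives whose probe sets may read each other. UGT2A3, a glucuronidating enzyme (4.84 to 6.93, at least 1.91-fold), ALDH1A1 and CYP1B1 (8.61 to 9.66, 2.07-fold) rose. Of 33 peroxisome and beta-oxidation genes ECI2 rose and ACOX2, an oxidase of branched chains and bile acid precursors (8.39 to 6.58, 3.50-fold), fell (median -0.05). In cholesterol and fatty acid synthesis 0 of 25 changed and 20 lay below 0, with a median of -0.21 and HMGCS1 at 11.12 and 10.30 (-0.83). Of 29 hypoxia and mitophagy genes BNIP3 was the 1 that rose (median -0.06), and ADM had 7.25 and 7.97 (0.72). The 14 genes of small RNA silencing lay between -0.14 and 0.26, with a median of -0.01.

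Of 46 collagens, laminins, integrins and matrix proteases 6 fell and 0 rose, with a median of -0.03. Beside COL18A1 these were SERPINB5, a serpin (10.25 to 8.99), LAMB3, a laminin chain (8.42 to 7.21), the protease PLAU (8.40 to 7.20) and the protease inhibitors TIMP1 (10.89 to 9.75) and TIMP2 (7.70 to 6.66). Of 27 S100 proteins and annexins (median -0.14) 4 fell and 0 rose: ANXA3 (9.62 to 6.65, 7.81-fold), S100A10 (12.13 to 10.10, 4.09-fold), S100A11 (11.60 to 10.35) and S100A6 (13.16 to 12.01). Of 24 galectins and tetraspanin-like proteins 5 fell, TM4SF4 rose and 20 lay below 0, with a median of -0.32. LGALS4 (13.45 to 11.81) and LGALS3 (13.41 to 12.14), sugar-binding proteins of gut epithelium, fell (-1.64 and -1.27), beside TSPAN1 (10.62 to 8.94), TSPAN7 (9.56 to 7.86) and TSPAN12 (9.41 to 8.36).

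The HCT116 pair offered the same genes in cells named for added CDX1. That pair shares no array with the LS174T pair. CDX1's own probe set read 8.21 on the HCT116-Vec array and 8.24 on the HCT116-CDX1 array, so it did not show an added transcript, and where that probe set lies relative to the construct is not given in the sources used here. Of 193 genes that fell in LS174T and were measured in both pairs, 18 rose in HCT116-CDX1 (9.33%, against 0.792% of the 16530 genes measured in both) and 4 fell (2.07%, against 0.853%). In all, 59.1% of the 193 lay above 0 there, with a median of 0.09 beside -0.01 for all genes. Of 85 genes that rose in LS174T, 5 rose in HCT116-CDX1 (5.88%) and 2 fell (2.35%), with a median of 0.03.

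The 18 genes lower in LS174T-siCDX1 and higher in HCT116-CDX1 began with KRT20, which was 6.36 on the HCT116-Vec array and 9.38 on the HCT116-CDX1 array (3.03), against -2.70 in LS174T. CCL20 had -1.31 in LS174T and 3.41 in HCT116, IL18 had -1.77 and 2.38, and ANTXR2, an anthrax toxin receptor, -1.03 and 2.56. PARM1 had -4.14 and 1.11, DPP4 -1.76 and 1.41, EPS8L3 -1.66 and 1.51, MSLN, the surface protein mesothelin, -1.89 and 1.49, and CLIC3, a chloride channel protein, -1.68 and 1.63. The other 9 were PRSS23, DSC2, PDE9A, GASK1B, LAMB3, CEMIP, FGFBP1, H2AC6 and PAPSS2, with rises of 1.02 to 1.45 in HCT116. The 2 genes higher in LS174T-siCDX1 and lower in HCT116-CDX1 were ECI2 (4.03 and -1.07) and CYP1B1 (1.05 and -1.06). PIGR had -4.69 in LS174T and 0.20 in HCT116.

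**Figure D5:**
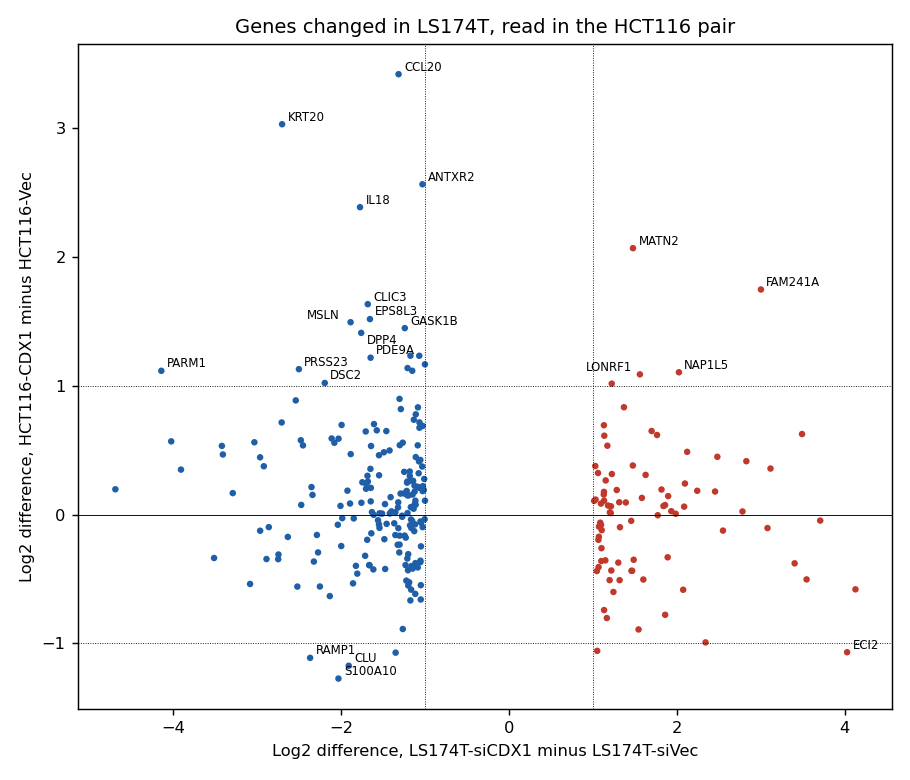
Each point is 1 of the 278 genes changed in LS174T and measured in both pairs, with its log2 difference in LS174T (siCDX1 minus siVec) on the x axis and in HCT116 (CDX1 minus Vec) on the y axis; blue fell and red rose in LS174T, and dotted lines mark 2-fold. KRT20, CCL20, IL18 and ANTXR2 stand out at the upper left, and most genes lie within 2-fold on the y axis.

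At the limits of the rules, ITGA1, at 5.72 in siVec cells and less than 0.01 above 6 in siCDX1 cells, was just measured, and LOC100996671, less than 0.01 under 6 in siVec cells and at 5.87 in siCDX1 cells, was not. The smallest fall counted was that of MYOM3 (-1.0), and KLF6 (-0.99) was the nearest left out. For rises these were CYP4X1 (1.0) and KLK11 (0.99). Between -1.1 and -1 lay 31 of the 211 falls, and 43 genes lay just short, between -1 and -0.9. For rises 14 lay between 1 and 1.1 and 26 between 0.9 and 1. The dimmer level was under 6 for 31 of the genes that fell and 28 of those that rose.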

How the data were processed

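Of the 4 arrays, 1 for each modified cell line, the 2 of LS174T were compared. Per the labels' protocols, total RNA was labelled with biotin from 2 µg. The deposited values are log2 expression, which the authors made with RMA per the submitters' processing notes. RMA subtracts background, equalises the arrays' distributions and summarises each probe set. The RMA version, and which arrays went into it together, are not given in the sources used here. Equalised distributions would hide a change of all genes at once.

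Of 54675 probe sets, 41097 had 1 gene in the platform annotation, 1801 several and 11777 none listed there. Only those with 1 gene were named, and 41043 matched RefSeq genes (GRCh38.p14), with 0 symbols changed. Where a gene had several probe sets, the brightest on average across the 4 arrays stood for it. It was measured where the brighter LS174T array was at least 6 and called where the log2 difference was at least 1 in size. Differences are siCDX1 minus siVec on the log2 scale. With 1 array per group no test was possible, and precision is limited by the number of arrays. On simulated data the counting by 2-fold was tested. All value columns matched a sample by title.

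Named were KRT20, CDX1 and CDX2, the top 30 genes in each direction (ranked with levels under 6 set to 6), changed members of 42 gene lists and, where fewer than 4 changed, the members with the largest differences up to 4, genes past 2-fold in both pairs, and up to 6 changed genes whose probe sets disagreed most. From these, genes were described by role. Some further list and marker genes were named after their values were seen. These were GATA6, KLF5, SOX9, KRT18, FOS, CHGA, NEUROG3, MAGEA6, MAGEA12, CEACAM5, CEACAM1 and the markers. The 42 lists hold 1244 genes, of which 1009 were measured and 97 changed. The result of 1 list is not reported here. Members and lists were chosen with earlier results of these data known. Alternatives changed the floor, the normalisation (quantile, medians, loess), the choice of probe set, the fold and the motif. Python 3.11.15, pandas 2.3.3, numpy 2.4.6, scipy 1.17.1, statsmodels 0.14.6 and matplotlib 3.10.9 were used.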

Additional observations from a re-analysis of the deposited data

Results flagged for a closer look

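In 9 genes the LS174T and HCT116 pairs moved the same way although the titles name less CDX1 in the former and more in the latter, and both differences passed 2-fold. This contrast between lines was not tested, since each group has 1 array. The 4 that fell in both were RAMP1 (-2.37 in LS174T and -1.11 in HCT116), S100A10 (-2.03 and -1.27), CLU, the secreted chaperone clusterin (-1.91 and -1.17), and CAP2, an actin regulator (-1.35 and -1.07). The 5 that rose in both were FAM241A (3.0 and 1.74), NAP1L5 (2.03 and 1.1), LONRF1 (1.56 and 1.09), the matrix protein MATN2 (1.48 and 2.06) and the dehydrogenase BDH2 (1.23 and 1.01). Of these, FAM241A (5.10), NAP1L5 (5.41), MATN2 (5.62) and LONRF1 (5.79) were below 6 on the siVec array. Other LS174T probe sets lay at 0.23 for S100A10, 0.02 for FAM241A, 0.11 for MATN2, 0.18 for BDH2, and 0.32 and -0.36 for LONRF1. Those of CAP2 (-1.15), NAP1L5 (1.74) and CLU (-1.08 to -0.26) had the sign of the call, and RAMP1 had 1 probe set. With the mean over probe sets 1 gene fell in both pairs and 2 rose in both.

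Probe sets that name no gene here carried signal outside the gene counts. Of 8199 measured probe sets with several genes or none listed, 34 rose and 37 fell at least 2-fold, and 19 and 16 of these had several genes. Of the 32385 measured probe sets with 1 gene, 166 rose and 370 fell. Falls were thus less frequent among the 8199, while the shares of rises were nearer to each other. Neither difference was tested. The second largest rise, in a probe set with 2 genes, went from 6.48 to 10.62 (4.14), and the largest fall, in a probe set with 0 listed, from 7.83 to 4.56 (-3.27). These examples were chosen after their values were seen.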

How the results depend on the processing

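No paired analysis was possible because each group has 1 array. For the same reason no library could be left out, and signal over background is a limit: 31 falls and 28 rises have a dimmer level under 6. The counts of 101 genes that rose and 211 that fell became 291 and 547 at 1.5-fold and 44 and 85 at 3-fold. Under the other alternatives (no floor, a floor of 7, levels under 6 set to 6, quantile normalisation, equal medians, loess, the brightest LS174T probe set, the mean over probe sets, and leaving out probe sets ending in _x_at or _s_at) they ranged from 76 to 108 and from 165 to 220. The share of falls among changed genes stayed between 64.6% and 69.8% in all of them. With the mean over probe sets 76 of the 101 rises and 168 of the 211 falls were kept. Of 150 named changed genes, 115 passed 2-fold the same way in every alternative that gave a value and 35 did not in at least 1. Leaving out _x_at and _s_at probe sets turned HUNK to 0.26 and MAGEC2 to -0.14, since another probe set then stands for the gene. Of the genes that fell in LS174T, 18 rose in HCT116-CDX1, 10 of 78 with a 3-fold rule in LS174T and 14 of 159 with the mean over probe sets. Of the same genes 4 fell there, 3 of 78 and 1 of 159. Of the genes that rose in LS174T, 5 rose in HCT116-CDX1, against 2 with the 3-fold rule and 2 with the mean over probe sets; 2 fell, against 1 and 1. With TTTAT in place of TTTATNG the promoter shares of 11.8% (fell), 4.63% (rose) and 7.2% (measured) became 31%, 30.6% and 25.9%.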

Other observations

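The naming rule left 162 changed genes out, 105 that fell and 57 that rose, with differences from -3.51 to 2.01. The genes in this paragraph and the next were chosen after their values were seen, and no test was run. PAQR5, a steroid-binding membrane receptor, had the lowest value (8.17 to 4.65), and its other probe set went from 7.35 to 6.19. The cytoskeletal adaptor PDLIM1 went from 11.55 to 9.27 (-2.29), the retinoic acid-induced receptor GPRC5A from 10.53 to 8.45 (-2.08) with both its other probe sets lower too, and the calcium-binding protein CALB2 from 9.68 to 7.40 (-2.27). Its relative CALB1 went the other way, from 7.66 to 8.96 (1.29), with 1.28 on its other probe set. IGFBP3, which binds insulin-like growth factors, rose from 8.85 to 10.44 (1.58) and on its other probe set by 1.51. The DNA methyltransferase DNMT3B rose from 7.36 to 8.97 (1.60) on its 1 probe set.

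Shares of gene families named by symbol stand beside 1.25% fell, 0.598% rose and 48.8% above 0 over all measured genes, and no difference was tested. Of 420 measured ZNF zinc finger genes 7 rose (1.67%) and 0 fell. The median was 0.10, and 294 lay above 0. In the ZNF618 gene all 3 probe sets rose (1.77, 1.35 and 1.11). Of 14 kallikreins 3 fell, KLK10 (10.45 to 8.42), KLK6 (8.35 to 6.69) and KLK1 (9.14 to 8.07), while KLK11 had 9.16 and 10.15 (0.99). The other probe set of KLK10 had 6.61 and 6.59 (-0.02). Of 336 SLC transporters 6 fell (1.79%) and 0 rose. EGFR was counted as having risen through its probe set with the highest mean (9.85 to 11.07), and a second had 1.17. Its other 7 probe sets lay between -0.13 and 0.15, among them 1 at 10.56 and 10.60, so the EGFR call rests on 2 of 9 probe sets.

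Along the chromosomes, 10 pairs of neighbouring measured genes (of 16808) both fell and 1 pair, HBE1 and OR51B4, both rose. Whether these counts differ from those of pairs drawn by chance was not tested. Among the falling pairs were S100A10 and S100A11 on chromosome 1, MTTP and DAPP1 and the chemokines CXCL8 and CXCL1 on chromosome 4, CYP4F2 and CYP4F11 on chromosome 19, and CLDN2 and MORC4 on chromosome X. Beside 1.25% and 0.598% of all measured genes, chromosome 21 had 6 falls (3.03%) among 198 measured genes, chromosome 4 had 17 falls (2.82%) and 10 rises (1.66%) among 602, chromosome 10 had 15 falls (2.26%) and 9 rises (1.35%) among 665, and chromosome 22 had 0 falls and 1 rise among 429. Chromosome 19 had 25 falls (2.1%) and 5 rises (0.419%) among 1193 measured genes. Chromosome 8 had 1 fall (0.167%) and 6 rises (1%) among 599. The chromosomes named were chosen after their shares were seen, and no difference between chromosomes was tested. The chromosome of each gene comes from RefSeq.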
